A study of Homo sapiens with 4 samples.

Results

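A set of 9 complement genes was followed through the chromatin maps of MHCC97L cells, an established human hepatocellular carcinoma line. They are C1R, C1S, MASP1, C2, CFB, C3, C5, CFI and CD55, out of 19970 protein-coding genes on chromosomes 1 to 22 and X, chosen by name as complement genes that the liver makes. Each gene was read with 50000 bp on each side. The cells were untreated and wild type per the labels, and chromatin immunoprecipitation with sequencing was done once each for histone H3 trimethylated at lysine 4 (H3K4me3), acetylated at lysine 27 (H3K27ac) and monomethylated at lysine 4 (H3K4me1). The group that each mark forms is therefore 1 library of 1 cell line, with no second culture, no non-cancer hepatocyte and no other condition to set it against. An input library completes the 4 samples and was not analysed here. The values are peak summits, single positions where a mark was called, with the authors' score, a −log10 of a p-value or q-value. Depth of sequencing is unknown, so a missing summit means that none was called in that library. A low score in a bulk sample cannot tell fewer cells with the mark from less of the mark per cell.

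Complement is a cascade of plasma proteins that marks and lyses microbes, and hepatocytes make most of its soluble parts. The classical pathway starts when C1q, with the proteases C1r and C1s, binds an antibody, and the lectin pathway when MASP proteases bind sugars through mannose-binding lectin. Both build a convertase from C4 and C2, while factor B serves the alternative pathway. The convertases cut C3, then C5, and regulators such as factor I and the membrane protein CD55 hold them in check. H3K4me3 is known as a mark of promoters, H3K4me1 of enhancers and promoter flanks, and H3K27ac of both when active.

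The bases before 5 of the starts are shown because these genes differ in their promoter marks. CD55 had H3K4me3 with H3K27ac, and C1R had the same pair with a lower H3K4me3 score. CFB had acetylation alone, CFI a trace of H3K4me3 and MASP1 H3K4me1 alone. Each stretch is the 250 bases before the RefSeq start on GRCh38.p14, with every CpG dinucleotide in capitals.
CD55, chr1:207321428-207321677, plus strand: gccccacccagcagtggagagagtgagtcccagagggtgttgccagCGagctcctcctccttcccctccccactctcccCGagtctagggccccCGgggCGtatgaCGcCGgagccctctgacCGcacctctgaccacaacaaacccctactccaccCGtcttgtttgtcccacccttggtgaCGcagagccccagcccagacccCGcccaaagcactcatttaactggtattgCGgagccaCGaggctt
C1R, chr12:7092446-7092695, minus strand: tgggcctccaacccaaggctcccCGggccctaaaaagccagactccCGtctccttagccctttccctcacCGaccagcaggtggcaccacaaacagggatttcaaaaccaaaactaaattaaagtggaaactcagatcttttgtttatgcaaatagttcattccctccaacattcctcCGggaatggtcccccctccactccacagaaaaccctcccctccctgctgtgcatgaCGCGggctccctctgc
CFB, chr6:31945845-31946094, plus strand: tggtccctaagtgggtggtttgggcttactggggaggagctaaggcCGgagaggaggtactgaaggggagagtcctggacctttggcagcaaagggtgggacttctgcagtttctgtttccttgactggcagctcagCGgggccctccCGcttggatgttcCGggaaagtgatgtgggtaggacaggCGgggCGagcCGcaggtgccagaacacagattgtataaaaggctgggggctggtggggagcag
CFI, chr4:109802000-109802249, minus strand: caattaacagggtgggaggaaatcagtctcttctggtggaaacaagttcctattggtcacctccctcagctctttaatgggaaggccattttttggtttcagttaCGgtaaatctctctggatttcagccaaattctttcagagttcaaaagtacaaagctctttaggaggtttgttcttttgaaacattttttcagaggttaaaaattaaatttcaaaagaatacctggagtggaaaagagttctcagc
MASP1, chr3:187291738-187291987, minus strand: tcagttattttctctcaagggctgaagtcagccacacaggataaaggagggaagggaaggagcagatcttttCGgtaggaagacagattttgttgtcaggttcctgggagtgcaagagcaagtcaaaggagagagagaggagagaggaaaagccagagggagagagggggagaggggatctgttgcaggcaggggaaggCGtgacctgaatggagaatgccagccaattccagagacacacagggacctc
The CD55 stretch holds 12 CpG dinucleotides, that of CFB 7, that of C1R 6, that of MASP1 2 and that of CFI 1. RefSeq promoter entries matched 7 of the 9 genes. C3 and C1S, not among them, are described by their boundaries.

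Marks at the boundaries divided the 9 genes. H3K4me3 with H3K27ac within 1000 bp of the same boundary was found in 5: C1R, C1S, C2, C5 and CD55. Among all protein-coding genes 47.4% carried this pair. H3K4me3 was called at a boundary of 6 genes, against 56.8% of all, and H3K27ac at a boundary of 7, against 54.1%. H3K4me1 was called at a boundary of 3 genes, C1R, C1S and MASP1, and 12.4% of all genes had it there. C3 was the 1 gene of the 9 with no mark at a boundary, a state shared by 35.2% of all genes. It was also the 1 gene with no summit in its body or within 1000 bp of it, where the background is 25.7%. When the whole body plus 1000 bp on each side was counted, H3K4me3 was found in 6 genes (69.0% of all), H3K27ac in 7 (64.5%) and H3K4me1 in 5 (40.4%), the additions being C2 and C5. At the starts of the 7 genes that have one in RefSeq, H3K4me3 was called in 5 (59.3% of all starts), H3K27ac in 5 (56.4%), the pair in 4 (50.9%) and H3K4me1 in 2 (5.26%). With 1 library per mark no test of these counts was possible.

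**Figure D1:**
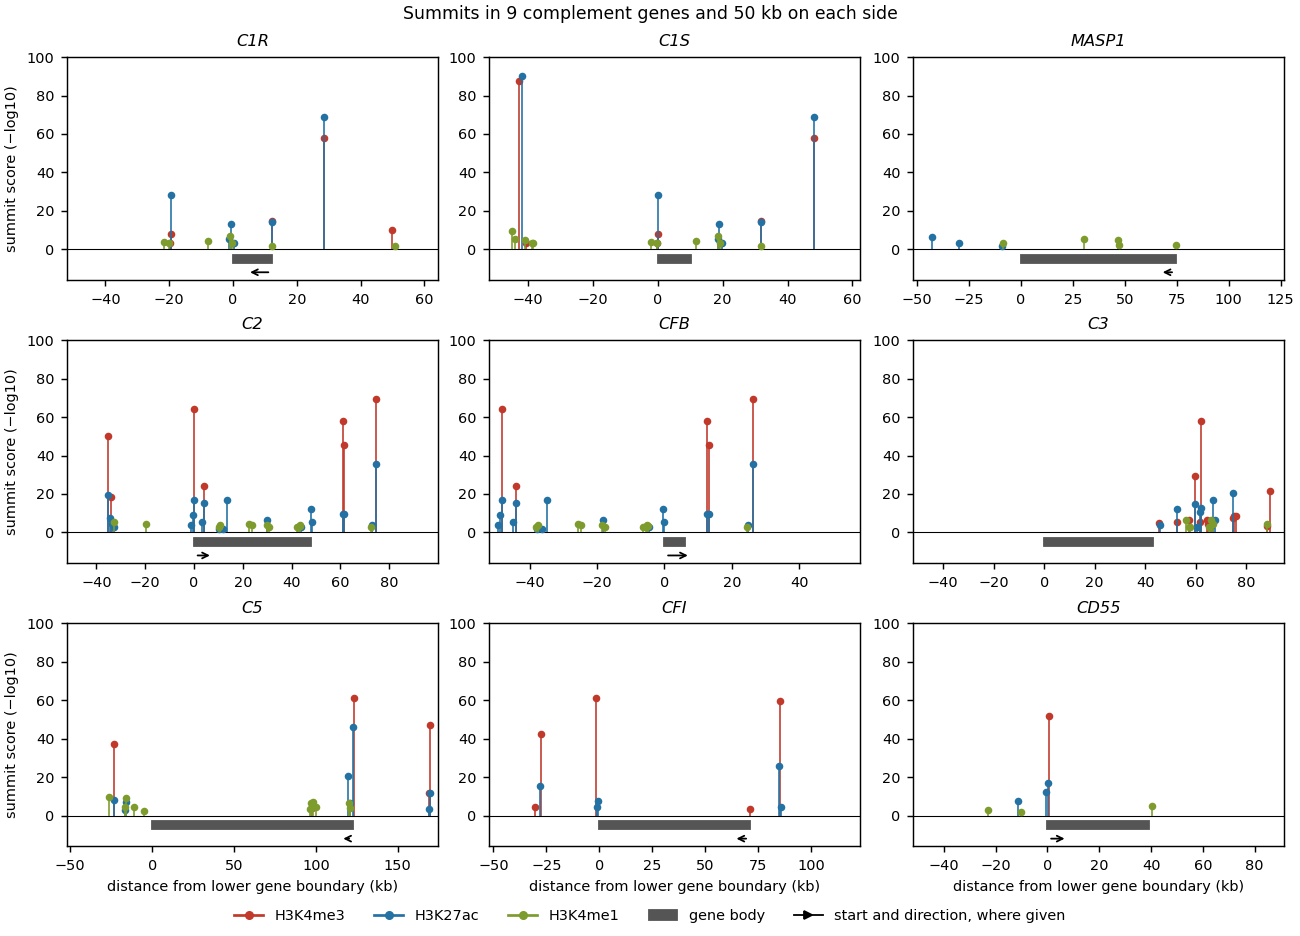
Summits of the 3 marks in the 9 genes and 50 kb on each side; each panel plots the score (−log10) against the distance from the gene's lower boundary in kb, and scores of different marks are separate scales. C3 stands without a summit over its body while the stretch above it is crowded, and MASP1 has low summits throughout.

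The boundary scores of the 9 genes were mostly low beside the best boundary scores of all marked protein-coding genes. Of the 6 genes with H3K4me3, 2 had a score above 52.1, the median over marked protein-coding genes. Of the 7 with H3K27ac, 1 was above the median of 30.1, and none of the 3 with H3K4me1 was above 4.75. C2, C5 and CD55 stood apart for H3K4me3, with best scores of 64.4, 61.3 and 51.6, while C1R, C1S and CFI had 14.8, 8.06 and 3.47. No such gap separated the H3K27ac scores, which ran from 7.53 in CFI through 11.9 in CFB, 14.4 in C1R, 16.7 in both C2 and CD55 and 28.4 in C1S to 46.4 in C5. With single libraries, neighbours in that order cannot be shown to differ.

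**Figure D2:**
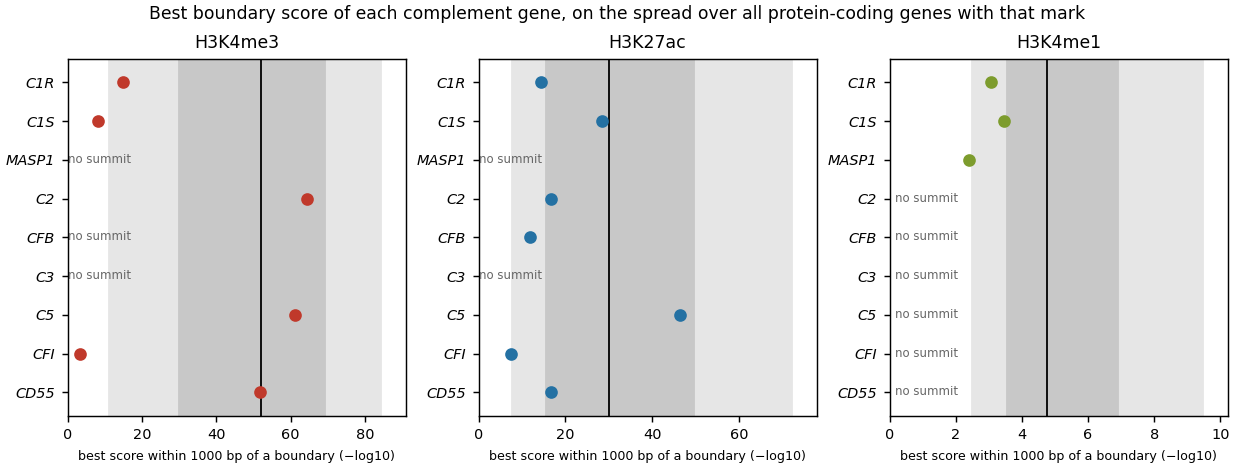
Best score (−log10) within 1000 bp of a boundary for each gene and mark; the line is the median over all protein-coding genes with that mark, and the shades span the central 50% and 80%. C2 and C5 lie to the right of the H3K4me3 median, and C5 alone to the right of the H3K27ac median.

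C1R and C1S encode the paired proteases of the C1 complex, the first enzymes of the classical pathway, and lie 9187 bp apart on chromosome 12. C1R (chr12:7080219-7092445, minus strand) had an H3K27ac summit of 14.4 lying 7 bp inside its start. An H3K4me3 summit of 14.8 lay 74 bp inside, and H3K4me1, at 1.80, lay 61 bp inside. All 3 marks thus met at the start, none of them strong: 12.9% of marked genes had a lower H3K4me3 score and 22.5% a lower H3K27ac score. The other end of C1R, which faces C1S, carried H3K27ac of 13.3 at 538 bp outside the gene and of 3.49 at 277 bp inside it. H3K4me1 lay beside it at 418 bp outside, with 3.06, and at 1011 bp, with 6.78, the highest H3K4me1 score in the flanks of C1R. No H3K4me3 summit was called at that end, so this stretch between both genes had acetylation with H3K4me1 only.

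At C1S (chr12:7060718-7071032) the marks sat at the lower boundary. H3K27ac scored 28.4 at 105 bp inside the gene, a value above that of 46.3% of marked genes. H3K4me3 scored 8.06 at 120 bp inside and 3.34 at 274 bp outside, above only 6.66% of marked genes. H3K4me1 scored 3.46 at 387 bp outside. C1S thus ranked much higher by acetylation than by H3K4me3, and C1R did so to a lesser degree. C1R and C1S were the 2 of the 9 genes with all 3 marks at a boundary, a state found in 7.66% of protein-coding genes. No boundary of another gene lies within 1000 bp of either. Higher summits stood nearby. C1RL, a gene for a C1r-like protein, had H3K4me3 of 57.8 and H3K27ac of 68.8, and LPCAT3, a lysophospholipid acyltransferase gene at the far edge of the C1S window, had 87.4 and 90.3.

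MASP1 (chr3:187217282-187291737, minus strand) encodes lectin pathway proteases through alternative transcripts. It had no H3K4me3 or H3K27ac summit at a boundary or in its body. The H3K4me3 summit closest to MASP1 was 76724 bp away, beyond the window, and 13.2% of protein-coding genes had a window free of H3K4me3. A weak H3K4me1 summit of 2.39 lay 68 bp before the start, where the lncRNA gene LOC101929130 also lies. H3K4me1 alone at a boundary was found in 1.82% of protein-coding genes, and MASP1 was the 1 such gene among the 9. Inside the gene 3 more H3K4me1 summits scored 5.42, 4.94 and 2.32. None of the 4 had H3K27ac within 1000 bp. The 3 H3K27ac summits of the window lay past the gene's far end and scored 6.51, 3.24 and 1.44.

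C2 and CFB encode the protease subunits of the convertases of the classical and alternative pathways and stand head to tail on chromosome 6, 423 bp apart. C2 (chr6:31897783-31945672, plus strand) had H3K4me3 of 64.4 at 95 bp inside its outer start, above 68.0% of marked genes. H3K27ac there scored 16.7 at 143 bp inside and 9.26 at 355 bp outside, and 25.6% of marked genes had a lower best score. This boundary is shared: EHMT2, a histone methyltransferase gene, has a boundary 85 bp away, so the summits cannot be assigned to C2. RefSeq lists a further start 3216 bp into C2. An H3K27ac summit of 5.52 lay within 1000 bp of that start, and no H3K4me3 summit did. That H3K27ac summit itself had H3K4me3 within 1000 bp and also lay within 1000 bp of a boundary of ZBTB12.

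The body of C2 held more marks than that of any of the other 8 genes, with 7 H3K27ac, 10 H3K4me1 and 1 H3K4me3 summits away from its boundaries. The H3K4me3 summit, of 24.2, and an H3K27ac summit of 15.5 lay 4239 and 4290 bp into C2, at the boundary of ZBTB12, a zinc finger gene within C2. An H3K27ac summit of 16.7 at 13348 bp into the gene had neither methyl mark within 1000 bp. Another, of 6.51 at 29996 bp, lay between H3K4me1 summits of 3.77 and 3.01. These in-gene summits were thus mostly acetylation and H3K4me1 of low score.

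CFB (chr6:31946095-31952084, plus strand) encodes factor B. H3K27ac scored 11.9 at 368 bp before its start and 5.52 at 6 bp inside it. No H3K4me3 summit was called within 1000 bp, and the nearest, of 58.1, lay 6520 bp beyond the far end, at NELFE and SKIC2. H3K27ac without H3K4me3 at a boundary was found in 6.23% of protein-coding genes, and CFB was the 1 such gene of the 9. No H3K4me1 summit lay closer than 4762 bp to CFB. Because the end of C2 is so near, the same H3K27ac summits also fall in the boundary window of C2. The highest summits around both genes, 69.3 for H3K4me3 and 35.8 for H3K27ac, were at DXO, a decapping enzyme gene.

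C3 (chr19:6677704-6720650) encodes the component on which all 3 activation routes converge. Its body of 42.9 kb and the 50 kb below it held no summit of any mark. The nearest summits lay above its higher boundary, H3K4me3 of 4.77 at 2518 bp and H3K27ac of 4.11 at 2852 bp, and the nearest H3K4me1 lay 13457 bp away with 6.30. All 30 summits of the C3 window, 14 of H3K4me3, 9 of H3K27ac and 7 of H3K4me1, stood on that side. The highest were at neighbours: H3K4me3 of 58.1 at TRIP10, a gene for a Cdc42-interacting protein, and H3K27ac of 20.6 at SH2D3A, an adaptor protein gene. C3 was thus an unmarked gene beside a marked stretch.

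C5 (chr9:120952335-121074865, minus strand) encodes the component whose cleavage starts the membrane attack complex. It had the highest H3K27ac boundary score of the 9 genes, 46.4 at 139 bp before the start, above 71.0% of marked genes. H3K4me3 scored 61.3 at 529 bp before the start, above 63.0%. Both summits lie inside CNTRL, a centrosomal protein gene whose boundary is 90 bp from that of C5, so the pair belongs to a shared boundary here too. Within C5, H3K27ac of 20.6 at 2762 bp and of 6.51 at 1821 bp stood with H3K4me1 of 6.30 and 4.14 at 2154 and 1750 bp. A second start of C5 in RefSeq had H3K4me3 of 3.97 and H3K4me1 of up to 7.21 within 1000 bp and no H3K27ac. Further out, inside CNTRL and 47087 bp before the C5 start, H3K4me3 scored 47.2 beside H3K27ac of 11.9.

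CFI (chr4:109730982-109801999, minus strand) encodes factor I, the plasma protease that cuts C3b and C4b. A single H3K4me3 summit of 3.47 lay 34 bp before its start, a value above that of 1.12% of marked genes. No H3K27ac was called at the start. The H3K27ac of 7.53 counted for CFI lay 511 bp outside its other end, on the side of PLA2G12A, a phospholipase gene 912 bp away with H3K4me3 of 61.3. Counted at starts only, CFI therefore carried H3K4me3 but no H3K27ac. The highest H3K27ac of the window, 25.9, was at GAR1, which encodes a small nucleolar ribonucleoprotein. No H3K4me1 summit was called in the CFI window, which was the case for 28.9% of all protein-coding genes and 49.3% of those on chromosome 4.

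CD55 (chr1:207321678-207360966, plus strand) encodes decay-accelerating factor, which dissociates convertases on the cell's own surface. H3K4me3 scored 51.6 at 559 bp inside the start, above 48.5% of marked genes. H3K27ac scored 16.7 at 231 bp inside and 12.2 at 457 bp before it, with 26.97% of marked genes lower. No protein-coding gene has a boundary within 1000 bp. The lncRNA gene LOC107985251 spans the CD55 start and has a boundary 451 bp inside CD55, 108 bp from the H3K4me3 summit, so here too the summits cannot be assigned to 1 gene. CD55 was thus the 1 gene of the 9 with H3K4me3 above 50 at a start not shared with another protein-coding gene. Its surroundings were sparse, with no further H3K4me3 summit in the window, 1 further H3K27ac summit of 7.63 and 3 H3K4me1 summits with scores from 1.67 to 4.75.

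CpG content of the promoter and the H3K4me3 score stood in the same order for 6 of the 7 genes with a RefSeq start, with CFB and MASP1 both lacking a summit. CFI, with the lowest content, was the exception. In the 300 bases from 250 before the start to 50 after, the observed number of CpG dinucleotides over that expected from C and G was 0.94 in C2, 0.92 in C5 and 0.63 in CD55. It was 0.48 in C1R, 0.31 in CFB, 0.26 in MASP1 and 0.17 in CFI. The 3 genes with a ratio of at least 0.6, a textbook limit for CpG islands, all had both H3K4me3 and H3K27ac at the start, and CD55 lay close to that limit. Of the 4 below it, 2 had H3K4me3, C1R and CFI, 2 had H3K27ac, C1R and CFB, and 2 had H3K4me1, C1R and MASP1. Over 13792 protein-coding promoters, H3K4me3 was found within 1000 bp of the start in 78.7% of those with a ratio of at least 0.6 and in 21.0% of the rest. For H3K27ac the shares were 74.9% and 19.9%, and for H3K4me1 3.18% and 9.39%. The genes with both promoter marks at the highest H3K4me3 scores were thus those whose promoters are of the CpG-rich kind. The starts of C2, C5 and CD55 lie near boundaries of other genes, so these scores cannot be assigned to the complement promoters alone.

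**Figure D3:**
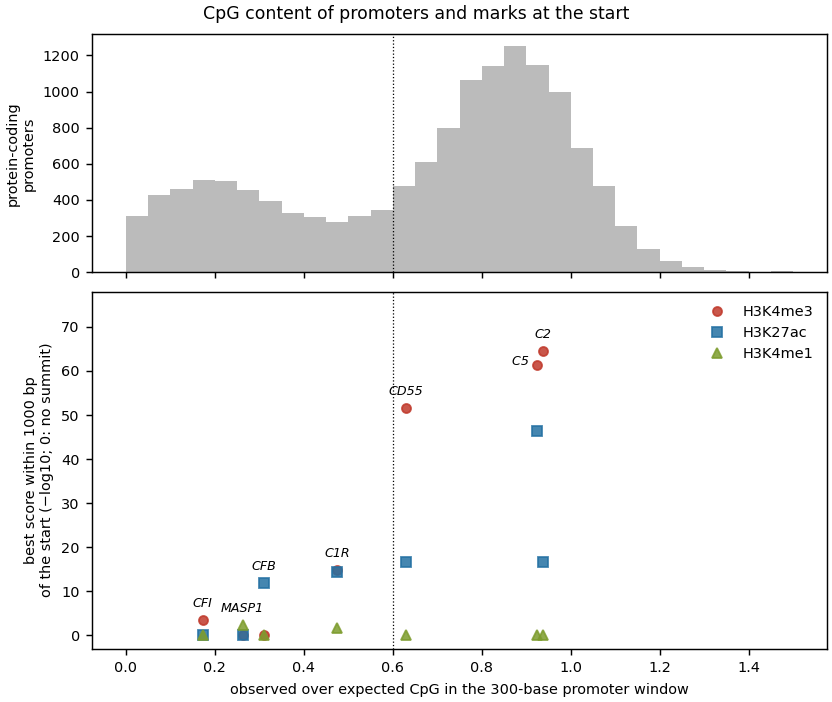
Upper panel, number of protein-coding promoters by observed over expected CpG; lower panel, the same ratio against the best score (−log10) within 1000 bp of the start for the 7 genes with a RefSeq start, with 0 for no summit. C2, C5 and CD55 lie right of the dotted line at 0.6 with H3K4me3 of 51.6 to 64.4, and the other 4 lie left of it with at most 14.8.

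The promoter windows were also searched on both strands for 10 motifs. CFB had the most matches, 3: the TATA box TATAAA at 30 bp before the start, the STAT motif TTCNNNGAA at 92 bp and the interferon response motif, on the other strand, at 140 bp. These motifs occurred in 10.0%, 6.99% and 3.18% of all promoters. In the printed CFB bases they read tataaa, ttcCGggaa and tttctgtttc. C1R had the C/EBP motif TTGCNNAA on the other strand at 106 bp (8.47% of promoters), seen as ttatgcaa above. CD55 had the GC box GGGCGG on the other strand at 46 bp (58.5%) and the NF-kB motif at 216 bp (6.08%). C2 had the GC box at 71 bp, also on the other strand. MASP1 had CCAAT at 27 bp, and CFI had it on the other strand at 199 bp (37.1%). C5 had no match. The motifs with no match in the 7 windows included the HNF4 motif CAAAGTCCA and the AP-1 motif TGANTCA. No matches overlapped. A match is a string of letters and no shown binding.

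Windows of C1R and C1S overlap, as do those of C2 and CFB, and with each summit counted once the 9 windows held 39 H3K4me3, 55 H3K27ac and 51 H3K4me1 summits. Of these, 7, 12 and 4 lay at a boundary of one of the 9 genes and 2, 9 and 19 inside one. The remaining 30, 34 and 28 lay in the flanks, where 18, 20 and 5 stood within 1000 bp of a boundary of another gene. H3K4me3 and H3K27ac in the flanks therefore often stood at boundaries of neighbouring genes, and H3K4me1 did so less often. H3K4me1 could still lie inside a neighbouring gene, as all H3K4me1 summits of the C3 window did. These shares were not counted over the flanks of all protein-coding genes. The median score of the H3K4me1 summits was 3.77, against 4.58 over the whole list, and none reached 10.

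Flank counts were uneven among the genes. In both flanks together, including summits close to the gene, C3 had 14 H3K4me3 summits, more than 96.0% of protein-coding genes. CFB had 15 H3K27ac summits and C2 had 12, more than 93.7% and 88.7% of genes. C1S and CFB had 11 H3K4me1 summits each, more than 82.8%. At the low end, MASP1 and CD55 had no H3K4me3 summit outside the gene, CD55 had 2 H3K27ac summits and CFI no H3K4me1 summit. The medians over the 9 genes were 5, 6 and 5 for H3K4me3, H3K27ac and H3K4me1, against 3, 3 and 2 over all protein-coding genes. The 9 counts are not independent, because C1R and C1S share summits, as do C2 and CFB. Most H3K4me1 flank summits of CFB, for example, lay inside C2. The difference in medians was not tested.

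**Figure D4:**
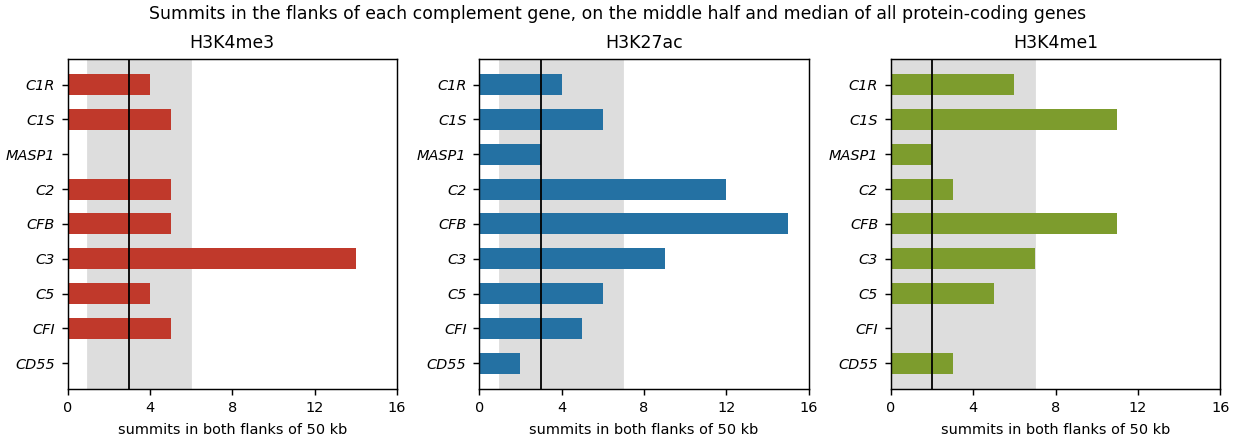
Number of summits in both 50 kb flanks of each gene; the line is the median and the shade the central 50% of all protein-coding genes. C3 leads for H3K4me3 with 14 and CFB for H3K27ac with 15, while MASP1 and CD55 have no H3K4me3 bar and CFI no H3K4me1 bar.

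Summits over 2500 bp from every gene boundary, where enhancers are looked for, numbered 16 for H3K27ac, 24 for H3K4me1 and 9 for H3K4me3. H3K4me3 was thus also called far from the outer ends of annotated genes. It scored 47.2 inside CNTRL in the C5 window and 42.7 inside CASP6 in the CFI window. Of the 9, 5 had H3K27ac within 1000 bp. Starts inside a gene were not counted as boundaries, so the 9 include the H3K4me3 of 3.97 within 1000 bp of the second C5 start. H3K4me1 lay within 1000 bp of 7 of the 16 H3K27ac summits (43.8%, 95% Wilson interval 23.1 to 66.8, counting error only). Over the whole H3K27ac list the share was 65.9%. Some of the 16 summits are close neighbours and not independent, so the interval cannot decide whether the shares differ, and this was not tested. The 7 sites were in C2, at 10404 and 29996 bp into the gene, at C5, with 1 in the gene 2762 bp from its start and 2 at 16503 and 15854 bp past its far end, and above C3, with 2 inside TRIP10. The C2 sites scored 2.03 and 6.51 for H3K27ac, those of C5 20.6, 2.74 and 6.87, and those near C3 16.7 and 6.51. The site of 16.7 also had H3K4me3 within 1000 bp, which leaves 6 with H3K4me1 and no H3K4me3. No such site was found in the windows of C1R, C1S, MASP1, CFI or CD55, while the C2 sites also fall in the CFB window. The acetylated stretch at the far end of C1R, described above, is too close to that boundary to be counted here.

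The promoter pair was found in 7 of 45 other complement genes. In 23 of them no mark was called over the gene or in the 1000 bp around it, beside the backgrounds of 47.4% and 25.7% given above. The difference from the 9 genes was not tested. Both lists were chosen with earlier results of these data known, so no conclusion about the 9 genes is drawn from it. Among 11 recognition genes 2 had the pair and 7 had no summit. C1RL led with H3K27ac of 68.8, MBL2, the mannose-binding lectin gene, had 16.9 without H3K4me3 at a boundary, and C1QA and C1QB, whose products form C1q, had no summit. Of 4 further genes of the convertases and the alternative pathway none had the pair. CFD, the factor D gene, had H3K27ac of 4.58, and C4A and C4B had no summit, but these near-identical copies share reads and their calls are uncertain.

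In the terminal pathway none of 6 genes had the pair and 4, among them C7 and C8A, had no summit. C8G had H3K27ac of 50.2 at a boundary window shared with FBXW5. Of 13 soluble regulators 2 had the pair and 6 had no summit. CLU, the clusterin gene, had H3K27ac of 20.6 with H3K4me3 of 36.8, and SERPING1, the C1 inhibitor gene, had no summit. Among 4 membrane regulators CD46 and CD59, which like CD55 protect the cell's own surface, had the pair, with H3K4me3 of 84.8 and 54.4 and H3K27ac of 38.2 and 26.0. CSMD1 had no summit. Of 7 receptor genes ITGB2, an integrin subunit gene, had the pair with H3K27ac of 51.0, and C3AR1 and CR2 had no summit. C5AR1 had H3K27ac of 1.57 at a boundary, and of 10.7 with H3K4me1 of 8.63 over the gene or in the 1000 bp around it.

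**Figure D5:**
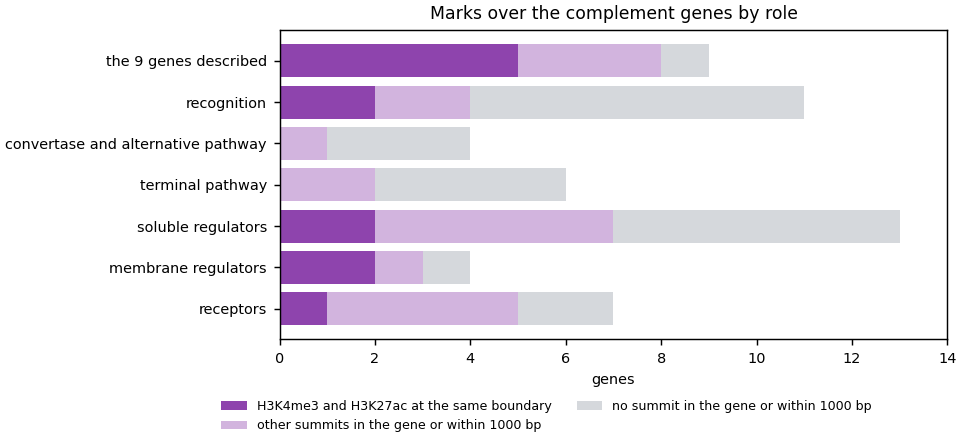
Number of complement genes with H3K4me3 and H3K27ac at the same boundary, with other summits in the gene or within 1000 bp, and with none, for the 9 genes and for other complement genes by role. The pair marks 5 of the 9 and 7 of the 45 others, and no gene of the convertase or terminal groups among the others. Both lists were chosen with earlier results of these data known.

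The protein-coding genes most like each of the 7 genes with H3K27ac at a boundary were found from the 3 best boundary scores, as Euclidean distance of log2(score + 1) over the 3 lists. Scores repeat within a list, so C2 shared all values with 3 genes, including CYB5R4 and SHPRH, C5 with 2, UTP11 and AKAP8L, and CFB with 7, including NBL1 and PRKAR2A. CD55 was nearest to EIF3F and DBT, and 1092 genes lay within 0.5 of it. The states of C1R and C1S were rarer, with 10 and 4 genes within 0.5. The nearest were CLRN3 and TK2 for C1R and ZC3H12D and SLC67A1 for C1S. CFI was nearest to CEMP1 and C3orf62, with 11 genes within 0.5.

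The cell line was checked against marker genes. Of 8 hepatocyte genes 3 carried the promoter pair, among them the transcription factor genes HNF4A and CEBPA. The secreted-protein genes ALB, APOB and TTR had no summit. APOA1 and SERPINA1, also secreted, lacked the pair but had low summits. APOA1 had boundary H3K4me3 of 1.80. SERPINA1 had boundary H3K4me1 of 3.77 and H3K27ac of 3.67 in the gene. The pair was found in 2 of 4 epithelial genes, the neighbours KRT8 and KRT18 with the same best H3K4me3 and H3K27ac boundary scores. EPCAM had no summit, while CDH1 had boundary H3K4me3 of 17.7 and H3K27ac of 54.2 in the gene. Among 6 myeloid genes the pair was found in 1, CD68, whose boundary window is shared with EIF4A1. None of 4 endothelial and 5 stellate cell or fibroblast genes had the pair. All of these counts stand beside the 47.4% of all protein-coding genes. Marks did occur in some genes of other cell types. H3K27ac scored 43.9 at a boundary of PECAM1 and 38.8 inside PTPRC. Boundary H3K4me3 scored 51.8 in ACTA2 and 22.8 in KDR. LYZ, CDH5, COL1A1, COL1A2 and DES had no summit, and CD163 had only H3K4me1, of 2.86. Genes without a summit were thus 1 of 6 myeloid, 1 of 4 endothelial and 3 of 5 stellate cell or fibroblast genes. Over all 27 marker genes the number was 9 (33.3%), beside the background of 25.7%. Whether the marks in these marker genes of the line relate to the values of the complement genes was not tested.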

How the data were processed

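H3K4me3, H3K27ac and H3K4me1 were mapped by chromatin immunoprecipitation and sequencing in 1 library each. The authors deposited 1 summit list per mark, whose score is a −log10 p-value or q-value, with no word on which. The submitters' processing notes name MACS2, Bowtie, deepTools and Picard and the hg38 build. Versions, settings and any use of the input were not given in the sources used here. Since scores vary with depth and background, they were used only within a list. Summits on chromosomes 1 to 22 and X were kept, which left out 185 of 46263 for H3K4me3, 273 of 70301 for H3K27ac and 61 of 86427 for H3K4me1.

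Genes, starts and promoter sequences came from RefSeq on GRCh38.p14, whose chromosome coordinates are those of hg38. A summit was at a boundary within 1000 bp of either end of a gene, inside the gene if further in, and in the flank otherwise, up to 50000 bp. Distal meant over 2500 bp from every boundary of 59094 genes of all types, and starts inside a gene were not counted as boundaries. Marks were taken as co-located within 1000 bp. Calls were made in Python 3.11.15 with pandas 2.3.3 and tested on simulated data. With no replicate, no test was run, and counts stand beside those of all 19970 protein-coding genes. The 9 genes, the lists of other complement and marker genes and the motifs were chosen with earlier results of these data known. Named genes were all 9, the genes at their shared boundaries and highest flank summits and, per role among other complement genes, the 2 with the highest H3K27ac boundary score and the first 2 without any summit, of which some genes are not reported here. Alternatives changed the boundary window, the score limit, the part of the gene counted, the flank, the distal limit and the co-location distance.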

Additional observations from a re-analysis of the deposited data

How the results depend on the processing

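Single libraries, unknown depth and summits without widths limit all values, and of 46 alternative counts 26 stayed within 1.5 times the main count. The cause was not tested where a count moved, except that a stricter score or a narrower window leaves fewer summits by construction. With H3K4me3 and H3K27ac at the same boundary were 5 of the 9 genes, but 3 with a window of 500 bp (C1R, C1S and C2; 31.1% of all protein-coding genes). Leaving out boundaries within 1000 bp of another protein-coding gene, an alternative chosen after seeing the data, also gave 3 (C1R, C1S and CD55; 33.4% of all), and lowered the genes with H3K27ac from 7 to 3 (39.1% of all). The 3 genes with H3K4me1 became 5 at 2500 bp (24.9% of all) and 5 over the whole gene (40.4%), and 0 with a score of at least 10 (1.13%). The 7 of 45 other complement genes with the pair became 14 at 2500 bp (55.8% of all), 14 over the whole gene (61.2%), 4 at 500 bp (31.1%) and 4 at a score of at least 10 (40.3%). At starts only it was 4 of 26 (50.9%), a count over fewer genes that cannot be set against the 7 directly. The 16 distal H3K27ac summits became 29 with flanks of 100000 bp and 5 at a score of at least 10. The 24 distal H3K4me1 summits became 39 with flanks of 100000 bp, 39 and 12 with distal limits of 1000 and 5000 bp, and 0 at a score of at least 10. The 7 distal sites with both marks became 16 with flanks of 100000 bp, 4 with the 5000 bp limit, and 0 at a score of at least 10 in both lists. No paired analysis was possible because each mark has 1 library.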

Other observations

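Among the other complement genes, 3 had strong H3K27ac inside the gene and none within 1000 bp of a boundary, and they are named here after their values were seen. ITGAM, an integrin subunit gene of complement receptor 3, had H3K27ac of 43.3 with H3K4me1 of 8.11 in the gene and no H3K4me3. C6, a terminal pathway gene, had H3K27ac of 34.4, H3K4me1 of 4.58 and H3K4me3 of 3.47. CPN1, which encodes a carboxypeptidase that inactivates C3a and C5a, had H3K27ac of 30.8 in the gene, beside H3K4me3 of 8.32 and H3K4me1 of 3.01 at a boundary. The genes C4BPA and C4BPB, which encode the chains of C4b-binding protein, both had H3K4me1 at a boundary, of 4.89 and 7.82. H3K4me3 there scored 5.30 in C4BPA and 22.8 in C4BPB, and H3K27ac was called in C4BPA only, at 4.58.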
